A study of Mus musculus with 14 samples.

Results

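The 8 genes described here encode the cytotoxic granule of killer T cells: the granzymes Gzma, Gzmb, Gzmk and Gzmm, perforin (Prf1), the granzyme B inhibitor Serpinb9, serglycin (Srgn) and the lysosomal membrane protein Lamp1. They were found by gene symbol in the platform annotation, with 1 probe set for each, among 19937 genes that had a probe set with a single gene name. All 8 passed the filter on low signal that left 14438 genes for testing.

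Cytotoxic T cells store granzymes in lysosome-like granules, where the proteoglycan serglycin holds them. On contact with a target cell the granule fuses with the plasma membrane, perforin opens the way into the target, and granzymes cleave proteins there and cause its death. Serpinb9 lies in the cytosol of the killer cell, where it inhibits granzyme B that has leaked from the granule. Effector CD8+ cells that carry much KLRG1, an inhibitory surface receptor, are known as short-lived effectors, while KLRG1lo cells hold the precursors of memory cells.

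The study measured effector CD8+ T cells of C57BL/6J mice, taken on day 6 after Listeria carrying ovalbumin were given, with 14 arrays in 5 groups. Wild-type (WT) KLRG1hi OT-I cells had 3 arrays, and KLRG1lo cells labelled Id2KO, Id2KOBimKO and BimKO had 2 each, against 5 for WT KLRG1lo OT-I cells. OT-I is a transgenic T cell receptor for an ovalbumin peptide; the source label of the Id2KOBimKO arrays does not name it. In all groups the donor cells came from fetal liver chimeras, were moved into congenic recipients the day before infection and were sorted by flow cytometry, and their RNA was amplified in repeated rounds. Id2 blocks E proteins, which bind the E-box motif CANNTG, and Bim, encoded by Bcl2l11, promotes cell death. The labels give no driver or extent for the deletions and do not say that replicates came from separate mice, so p-values measure only the spread between these samples.

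The values were RMA signals, a linear intensity that was turned into log2 for tests, and the number of arrays limits their precision. An array's median signal was 49.2 to 56.8 and its upper quartile 124.1 to 151.5. The CD8 T cell genes Cd8a and Cd8b1 had log2 signals of at least 11.29 and 12.26 on every array. Klrg1 had log2 signals of 10.51 to 11.52 on the KLRG1hi arrays and at most 6.83 on all KLRG1lo arrays. Id2 averaged 9.81 ± 0.10 in Id2KO, 9.74 ± 0.14 in Id2KOBimKO and 10.84 ± 0.13 in BimKO (log2, SD, n = 2 each), against 10.93 ± 0.20 in WT KLRG1lo (SD, n = 5). Bcl2l11 did not fall in BimKO cells, at 7.51 ± 0.21 (SD, n = 2), or in Id2KOBimKO cells, at 7.799 ± 0.295 (SD, n = 2). It averaged 7.60 ± 0.19 in WT KLRG1lo (SD, n = 5), so the Bim status of the BimKO and Id2KOBimKO arrays rests on the labels. Xist, an RNA made from the silenced X chromosome, stood at 4.47 and 4.99 in Id2KO and between 8.37 and 10.36 on the other 12 arrays, and its part in the Id2KO differences was not tested. The arrays also parted by background: probe sets without a gene name had a median log2 signal of 5.01 to 5.07 on 6 of them (WT KLRG1hi 1 and 2, Id2KO 1, Id2KOBimKO 1, WT KLRG1lo 1 and 2) and 5.16 to 5.39 on the other 8. Results are therefore also given within these lower-background and higher-background arrays, which the labels do not name. The higher-background arrays hold a single array each of WT KLRG1hi, Id2KO and Id2KOBimKO cells. The lower-background arrays hold a single Id2KO array and a single Id2KOBimKO array. Fits within either set therefore assume that a lone array varies like the other groups. Differences against a lone array are given as values, without p-values. Where genes are said to pass in such a fit, the call rests on that assumption. The fit on the 6 lower-background arrays gave nearly the same SE for every member in the KLRG1hi comparison, from 0.239 to 0.243. Its p-values and calls therefore rest on a spread shared over genes and say little of each gene's own spread.

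The promoters of the 4 members that passed the test in KLRG1hi cells are shown here because these genes moved together in that comparison. Each window runs from 250 bases before the annotated start to 50 after it, in RefSeq's sequence of build GRCm38.p6, read 5′ to 3′ on the gene's strand, with every E-box (CANNTG) in capitals. The windows are chr13:113100932-113101231 on the minus strand for Gzma, chr14:56262285-56262584 on the minus strand for Gzmb, chr13:113180916-113181215 on the minus strand for Gzmk and chr10:61297586-61297885 on the plus strand for Prf1.
Gzma: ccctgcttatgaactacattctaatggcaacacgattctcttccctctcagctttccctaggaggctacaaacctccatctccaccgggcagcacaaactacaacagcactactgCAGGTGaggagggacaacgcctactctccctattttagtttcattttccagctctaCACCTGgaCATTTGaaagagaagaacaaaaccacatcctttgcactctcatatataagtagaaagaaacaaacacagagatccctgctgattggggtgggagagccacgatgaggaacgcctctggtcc
Gzmb: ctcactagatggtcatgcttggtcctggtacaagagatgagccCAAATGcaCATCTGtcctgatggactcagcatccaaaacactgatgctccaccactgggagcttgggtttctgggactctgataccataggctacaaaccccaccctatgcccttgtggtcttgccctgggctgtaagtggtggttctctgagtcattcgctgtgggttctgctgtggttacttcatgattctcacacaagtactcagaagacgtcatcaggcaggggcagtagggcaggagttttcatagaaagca
Gzmk: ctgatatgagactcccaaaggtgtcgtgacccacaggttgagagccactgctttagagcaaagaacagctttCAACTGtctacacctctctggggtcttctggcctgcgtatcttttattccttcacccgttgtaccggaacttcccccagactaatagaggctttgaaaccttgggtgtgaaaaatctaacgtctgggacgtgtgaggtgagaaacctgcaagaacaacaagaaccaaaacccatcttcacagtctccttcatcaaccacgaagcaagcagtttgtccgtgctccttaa
Prf1: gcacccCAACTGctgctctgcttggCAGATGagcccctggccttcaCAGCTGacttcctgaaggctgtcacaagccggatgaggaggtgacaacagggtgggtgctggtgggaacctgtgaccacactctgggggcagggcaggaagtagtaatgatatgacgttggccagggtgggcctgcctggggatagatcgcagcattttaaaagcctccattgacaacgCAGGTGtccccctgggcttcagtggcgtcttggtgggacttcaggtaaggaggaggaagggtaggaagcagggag

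The Gzma window held 3 E-boxes, at positions -135, -79 and -71 from the start, of which those at -135 and -79 read CAGGTG on 1 strand or the other. The Gzmb window held 2, at -207 and -199, and neither read CAGGTG or CAGCTG. The Gzmk window held 1 E-box, at -178, and a T-box motif, GGTGTGA, at -75. The Prf1 window held 4, of which the one at -204 read CAGCTG and the one at -25 read CAGGTG. The Runx motif TGTGGT stood at -50 in Gzma, at -93 and -34 in Gzmb and at -130 in Prf1, and the AP-1 motif TGANTCA stood at -58 in Gzmb. Both strands were searched, and any E-box includes the CAGCTG and CAGGTG forms. Of 32851 promoter windows of the same length in the table, 72.3% held CANNTG, 20.2% CAGGTG, 16.3% CAGCTG, 16.8% TGTGGT, 7.81% TGANTCA and 3.98% GGTGTGA. These matches describe the sequence; binding was not measured.

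In WT cells, KLRG1hi against KLRG1lo, 4 of the 8 members rose and none fell: Gzma, Gzmb, Gzmk and Prf1. Over all genes tested, 0.942% passed at an adjusted p under 0.05 and 0.679% passed as higher. The members that rose encode granzymes A, B and K and the pore former. For the other members the arrays of the 2 WT groups overlapped. These were the granzyme Gzmm, Serpinb9, the serglycin scaffold and the granule membrane protein Lamp1. In bulk RNA, more cells that express a gene and more RNA per cell cannot be told apart.

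Gzma, a protease that cleaves after basic residues, had linear signals of 5947, 7003 and 7215 on the KLRG1hi arrays, against 1331, 1581, 1325, 1358 and 1052 on the WT KLRG1lo arrays. Every KLRG1hi array lay above every WT KLRG1lo array. The difference was 2.34 on the log2 scale (SE 0.24, 5.08-fold, limma adjusted p = 3.46e-05). It was 2.15 within the lower-background arrays and 2.54 within the higher-background arrays.

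Gzmb, the granzyme that cleaves after aspartate and activates caspases, had signals of 3196, 3802 and 3727 in KLRG1hi cells, against 1778, 1460, 949.0, 1179 and 1108 in WT KLRG1lo cells. The groups did not overlap. Its log2 difference was 1.50 (SE 0.19, 2.82-fold, limma adjusted p = 0.00044). WT KLRG1lo arrays 1 and 2 were the highest of their group, and the difference was 1.11 within the lower-background arrays that hold them and 1.80 within the higher-background arrays.

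Gzmk, a protease with a specificity like that of granzyme A, had signals of 614.5, 876.1 and 984.6 in KLRG1hi cells, against 384.6, 514.5, 278.2, 245.9 and 298.3 in WT KLRG1lo cells. The lowest KLRG1hi array was above the highest WT KLRG1lo array. The log2 difference was 1.28 (SE 0.25, 2.44-fold, limma adjusted p = 0.0185). It was 0.72 within the lower-background arrays (adjusted p = 0.106) and 1.85 within the higher-background arrays, with their single KLRG1hi array. The call was lost when WT KLRG1hi array 2 or 3 or WT KLRG1lo array 3, 4 or 5 was left out, with adjusted p-values from 0.0509 to 0.139.

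Prf1, which encodes the pore-forming protein, had signals of 579.1, 971.4 and 997.6 in KLRG1hi cells, against 501.2, 556.6, 221.5, 311.2 and 331.8 in WT KLRG1lo cells. The groups were apart, but KLRG1hi array 1 lay close above WT KLRG1lo array 2. The log2 difference was 1.18 (SE 0.26, 2.27-fold, limma adjusted p = 0.0357). It was 0.51 within the lower-background arrays (adjusted p = 0.325) and 1.81 within the higher-background arrays, again with a single KLRG1hi array. Leaving out the same 5 arrays as for Gzmk, 1 at a time, ended the call, with adjusted p-values from 0.0751 to 0.251.

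These 4 members were also those whose KLRG1hi arrays lay above all WT KLRG1lo arrays, a pattern found in 2.41% of the genes tested.

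Serpinb9, the cytosolic inhibitor of granzyme B, did not pass (log2 difference 1.08, SE 0.29, limma adjusted p = 0.114). Its signals were 253.3, 366.4 and 406.5 in KLRG1hi cells, against 244.9, 266.1, 94.49, 122.5 and 133.1 in WT KLRG1lo cells. KLRG1hi array 1 lay between WT KLRG1lo arrays 1 and 2, so the groups overlapped. The difference was 0.26 within the lower-background arrays (adjusted p = 0.649) and 1.82 within the higher-background arrays. In the fit on the lower-background arrays 1.8% of all genes passed, and in that on the higher-background arrays, with a single KLRG1hi array, 9.61% passed, Serpinb9 among them. Serpinb9 also passed after quantile normalization (adjusted p = 0.045, 1.56% of all genes), with the array spread as a covariate (adjusted p = 0.00324, 2.6% of all genes) and without WT KLRG1lo array 2 (adjusted p = 0.0263).

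Gzmm, a protease that cleaves after methionine and similar residues, had signals of 94.56, 130.8 and 130.1 in KLRG1hi cells, against 158.1, 164.1, 113.1, 114.3 and 106.8 in WT KLRG1lo cells. The groups overlapped, with a log2 difference of -0.14 (95% interval -0.56 to 0.28, limma adjusted p = 0.999). Its sign differed between the array sets, at -0.53 within the lower-background and 0.22 within the higher-background arrays. Of the 4 granzymes, then, 3 rose in KLRG1hi cells, and the interval of the fourth ends below the difference of each of the other three.

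Srgn, the proteoglycan that packs granzymes and perforin, had signals of 3858, 3970 and 4670 in KLRG1hi cells, against 3970, 4026, 3327, 3057 and 3457 in WT KLRG1lo cells. Its log2 difference was 0.23 (95% interval -0.06 to 0.52, limma adjusted p = 0.883), and the groups overlapped. Lamp1, also known as CD107a, appears on the cell surface when granules are released. Its signals were 472.8, 654.0 and 696.2 in KLRG1hi cells, against 685.5, 762.6, 614.2, 625.3 and 550.2 in WT KLRG1lo cells, a log2 difference of -0.10 (95% interval -0.43 to 0.22, limma adjusted p = 1). Its groups overlapped as well.

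**Figure D1:**
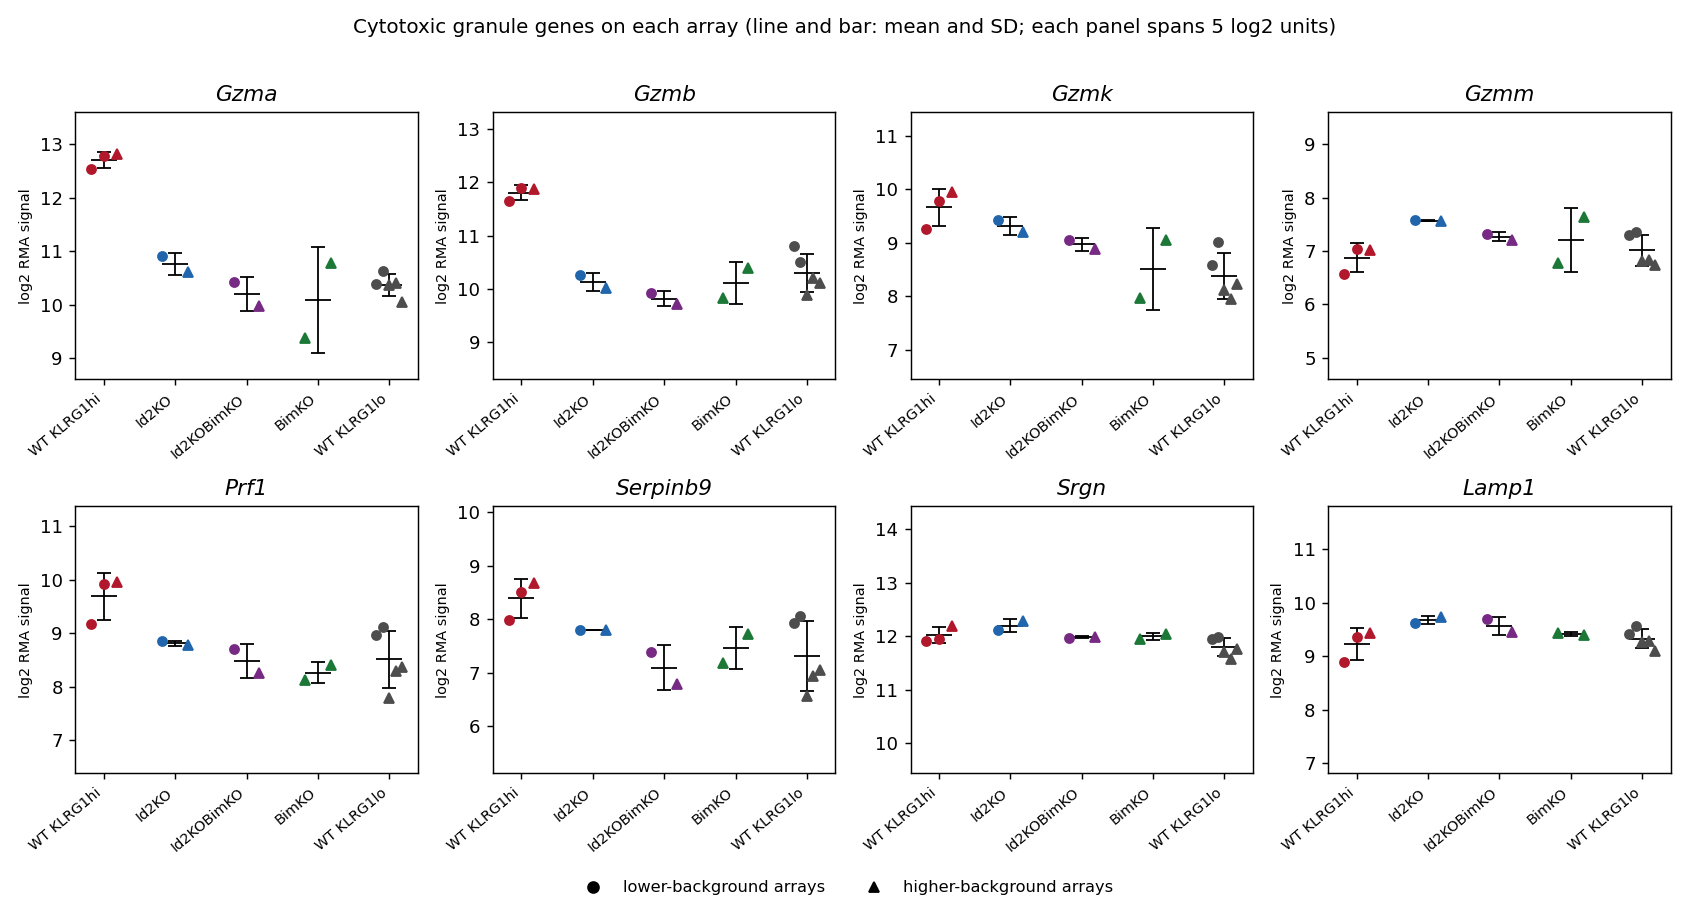
Log2 RMA signal of each gene on each array, by group, with the group mean and SD as a line and bar. Circles mark lower-background arrays and triangles higher-background arrays. Gzma and Gzmb stand apart in the 3 WT KLRG1hi arrays, while in Prf1 and Serpinb9 the WT KLRG1lo circles reach up towards the KLRG1hi arrays.

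Markers of other cells that carry such granules were read beside these differences. Of 9 NK cell markers, 8 had a probe set and 6 were tested, and their summed linear signal was 2686 to 5139 in KLRG1hi and 1734 to 2575 in WT KLRG1lo cells. All 6 had positive log2 differences, from 0.215 to 2.92 with a median of 0.59, beside 50.5% positive over all genes tested. Klrb1c, the gene of NK1.1, was the only one of the 6 that passed, at 2.92 (SE 0.29, limma adjusted p = 3.12e-05). Ncr1, a defining gene of NK cells, had log2 signals of 3.65 to 4.93 over all 14 arrays, below the median of the unnamed probe sets. Mast cells also hold serglycin, and their defining genes Cpa3 and Ms4a2 were at most 3.87 and 4.35 on any array. Kit, another defining gene, averaged 5.67 ± 0.34 in KLRG1hi (SD, n = 3) and 5.70 ± 0.17 in WT KLRG1lo cells (SD, n = 5). Both means lay above the medians of the unnamed probe sets. Of 9 mast cell and basophil markers 3 were tested and none passed. Their list summed to 253.9 to 294.8 in KLRG1hi and 234 to 308.3 in WT KLRG1lo cells. Of 5 B cell markers tested none passed, and their list summed to 212.1 to 277.4 in KLRG1hi and 266.7 to 782.4 in WT KLRG1lo cells. Of 8 monocyte and macrophage markers tested Itgam rose, by 2.32 on the log2 scale (SE 0.20, limma adjusted p = 1.21e-05), and none fell, while their list summed to 1742 to 3491 in KLRG1hi and 1196 to 1657 in WT KLRG1lo cells. Of the 8, 4 had positive and 4 negative differences, with a median of -0.031. Itgam had mean linear signals of 1114 in KLRG1hi and 214.5 in WT KLRG1lo cells, and Ccr2 953.2 and 615.6. Lyz2, a defining gene of that list, had log2 signals of 4.98 to 8.44 over all arrays. Lyz2 averaged 5.17 ± 0.19 in KLRG1hi (SD, n = 3) and 6.55 ± 1.25 in WT KLRG1lo cells (SD, n = 5). The defining genes Cd68 and Csf1r averaged 8.06 ± 0.26 and 5.51 ± 0.26 in KLRG1hi cells. In WT KLRG1lo cells these 2 genes averaged 7.74 ± 0.24 and 6.06 ± 0.47. The part of these markers in the granule gene differences was not tested.

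Against all 11 KLRG1lo arrays of the 4 genotypes, the KLRG1hi arrays kept their place for 3 members. The lowest KLRG1hi array had a log2 signal of 12.54 for Gzma, 11.64 for Gzmb and 9.18 for Prf1, against at most 10.90, 10.80 and 9.12 on any KLRG1lo array. For Gzmk, 10 of the 11 KLRG1lo arrays lay below the lowest KLRG1hi array, and Id2KO array 1 lay above it. For Gzmm and Lamp1 no KLRG1lo array lay below the lowest KLRG1hi array.

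Loss of Id2 was compared among KLRG1lo cells, Id2KO against WT. None of the 8 members passed, while 0.111% of all genes tested did, and 18.1% had an unadjusted p under 0.05. Among the members, 7 had positive differences, from 0.30 to 0.94 on the log2 scale, and Gzmb alone was negative. Of all genes tested 52.2% were positive, with a median of 0.030. For the 10196 genes above an array's 60th percentile on at least 2 arrays, all 8 members among them, the median was 0.20. At an unadjusted p under 0.05 were Gzmk, Gzmm and Srgn.

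Gzmk had signals of 688.6 and 585.3 in Id2KO cells, against 384.6, 514.5, 278.2, 245.9 and 298.3 in WT KLRG1lo cells. Both Id2KO arrays lay above all WT KLRG1lo arrays. The log2 difference was 0.94 (SE 0.29, 1.91-fold), and it did not pass (limma adjusted p = 0.275). It was 0.63 within the lower-background arrays, 1.10 within the higher-background arrays, 0.69 after quantile normalization and 0.34 with the interquartile range of each array's log2 values, its spread, as a covariate. In the fit on the higher-background arrays, with 1 Id2KO array against 3, 16.7% of all genes passed, Gzmk and Serpinb9 among them.

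Gzmm had signals of 190.6 and 188.8 in Id2KO cells, again above all WT KLRG1lo arrays, which reached 164.1. Its log2 difference was 0.56 (SE 0.23, limma adjusted p = 0.275), with 0.24 and 0.76 within the lower-background and higher-background arrays, 0.40 after quantile normalization and 0.16 with the spread covariate. Srgn had signals of 4419 and 5000 in Id2KO cells and at most 4026 in WT KLRG1lo cells, a log2 difference of 0.41 (SE 0.16, limma adjusted p = 0.275). That of Srgn was 0.14 and 0.61 within the lower-background and higher-background arrays, 0.056 after quantile normalization and 0.20 with the spread covariate. Lamp1 had 789.6 and 851.2 in Id2KO cells and at most 762.6 in WT KLRG1lo cells, a log2 difference of 0.35 (SE 0.18, limma adjusted p = 0.275). For Lamp1 it was 0.13 and 0.52 within those sets, 0.10 after quantile normalization and 0.058 with the spread covariate. These 4 members had Id2KO arrays above all WT KLRG1lo arrays, as did 14.2% of the genes tested.

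Gzma had signals of 1909 and 1560 in Id2KO cells, and the second lay below WT KLRG1lo array 2, at 1581. Its log2 difference was 0.39 (95% interval -0.18 to 0.96, limma adjusted p = 0.343). Gzmb had 1223 and 1032 in Id2KO cells, inside the WT KLRG1lo range of 949.0 to 1778 (log2 difference -0.17, 95% interval -0.63 to 0.29, limma adjusted p = 0.579). Both intervals end below the KLRG1hi differences of these genes.

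Prf1 had 459.7 and 436.1 in Id2KO cells, against a WT KLRG1lo range of 221.5 to 556.6, and a log2 difference of 0.30 (SE 0.30, limma adjusted p = 0.475). Serpinb9 had 223.2 and 222.6 in Id2KO cells, against 94.49 to 266.1 in WT KLRG1lo cells, and a log2 difference of 0.49 (SE 0.33, limma adjusted p = 0.337). For both genes the sign turned with the arrays used. Within the lower-background arrays the differences were -0.20 for Prf1 and -0.19 for Serpinb9, and within the higher-background arrays, with their single Id2KO array, 0.62 and 0.95. With the spread covariate they were -0.39 and -0.29. The spread was 2.85 ± 0.02 in Id2KO (SD, n = 2), against 2.60 ± 0.15 in WT KLRG1lo (SD, n = 5), and its part in the differences was not tested.

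**Figure D2:**
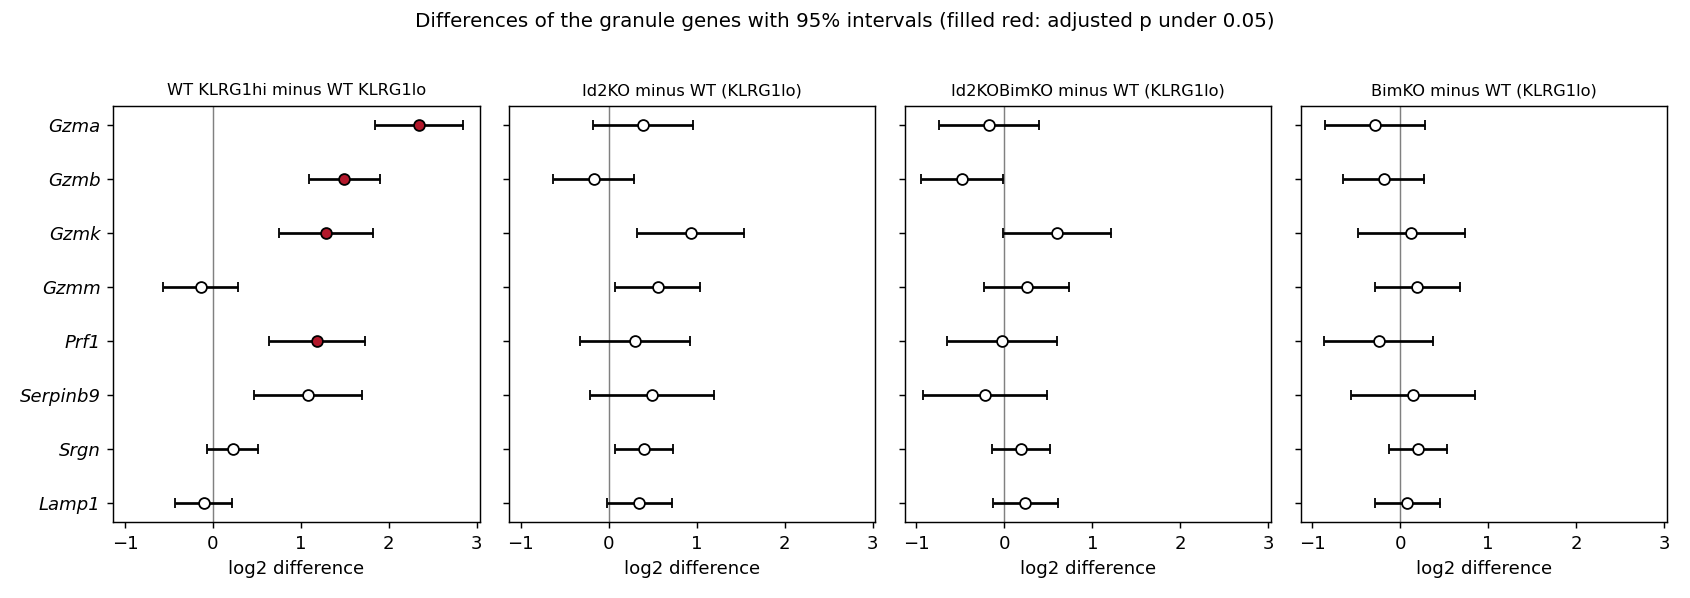
Log2 differences of the 8 genes from WT KLRG1lo cells, with 95% intervals from the limma model, for WT KLRG1hi, Id2KO, Id2KOBimKO and BimKO cells from left to right. Filled red points have an adjusted p under 0.05, and they are Gzma, Gzmb, Gzmk and Prf1 in the KLRG1hi panel.

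In cells labelled as lacking Bim, the Id2 comparison was Id2KOBimKO against BimKO, both KLRG1lo. No member passed, and no gene of the 14438 did (0% called), with 262 at an unadjusted limma p under 0.05. Gzma had signals of 1369 and 999.5 in Id2KOBimKO cells, against 666.2 and 1761 in BimKO cells. The BimKO arrays enclosed the Id2KOBimKO arrays, as they did for Gzmm, which had 160.1 and 147.7 in Id2KOBimKO and 109.9 and 198.2 in BimKO cells. Gzmk had 532.7 and 473.7 in Id2KOBimKO cells, against 248.7 and 528.7 in BimKO cells, and Gzmb had 968.9 and 845.1 in Id2KOBimKO cells, against 914.9 and 1346 in BimKO cells. For both genes 1 array of each group lay within the range of the other. Prf1 had 418.0 and 306.2 in Id2KOBimKO cells, against 277.7 and 338.9 in BimKO cells. Serpinb9 had 167.9 and 110.8 in Id2KOBimKO cells, against 145.8 and 212.4 in BimKO cells. Both genes overlapped between the groups, and so did Srgn, which had 4000 and 4070 in Id2KOBimKO and 3968 and 4202 in BimKO cells. The differences of the members ran from -0.37 for Serpinb9 to 0.47 for Gzmk on the log2 scale, each with an adjusted p of 1. Lamp1, at 826.6 and 697.6 in Id2KOBimKO and 693.5 and 670.4 in BimKO cells, was the member with Id2KOBimKO arrays above the BimKO arrays, as were 17.6% of the genes tested.

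Averaged over both Bim backgrounds, the Id2 effect passed for none of the members and for 0.18% of all genes. Gzmk had the largest value among the members, 0.70 on the log2 scale (SE 0.22, limma adjusted p = 0.529). The interaction of Id2 and Bim, tested as such, passed for no member and for 0.0277% of all genes. All 8 interaction estimates were negative, from -0.86 for Serpinb9 (SE 0.52, limma adjusted p = 0.726) to -0.08 for Prf1 (SE 0.46, limma adjusted p = 0.95). Among all 14438 genes tested, 7476 were negative, with a median of -0.0215. For the 10196 genes above an array's 60th percentile on at least 2 arrays, all 8 members among them, the median was -0.143. The Id2KO comparison and the one in cells labelled as lacking Bim are thus not shown to differ for the members.

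BimKO against WT KLRG1lo cells gave no call among the members or among all genes (0% called, 998 at an unadjusted limma p under 0.05). The members' log2 differences ran from -0.28 for Gzma to 0.20 for Srgn. Id2KOBimKO against WT KLRG1lo cells likewise gave none among the members, with 0.0623% of all genes called. Gzmb, at 968.9 and 845.1 in Id2KOBimKO cells against 949.0 to 1778 in WT KLRG1lo cells, had a log2 difference of -0.48 (SE 0.22, limma adjusted p = 0.785). Its arrays overlapped by 1 array in each group. Gzmk had a difference of 0.60 (SE 0.29, limma adjusted p = 0.785).

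Put in order of group means, the members took different shapes over the 5 groups. Gzma, Gzmb, Gzmk, Prf1 and Serpinb9 were highest in WT KLRG1hi cells, while Gzmm, Srgn and Lamp1 were highest in Id2KO cells. For Gzma the order after KLRG1hi was Id2KO, WT KLRG1lo, Id2KOBimKO and BimKO, with means of 12.71, 10.75, 10.37, 10.19 and 10.08, and only KLRG1hi was parted from its neighbour. For Gzmk it was KLRG1hi, Id2KO, Id2KOBimKO, BimKO and WT KLRG1lo, at 9.66, 9.31, 8.97, 8.50 and 8.38, where the arrays of Id2KO and Id2KOBimKO were apart and the other neighbours overlapped. For Lamp1 KLRG1hi came last, at 9.23, after 9.68 in Id2KO, 9.57 in Id2KOBimKO, 9.41 in BimKO and 9.33 in WT KLRG1lo, and the arrays of Id2KOBimKO and BimKO were apart. The range over all 14 arrays was widest for Gzma, 3.44 log2 units, and narrowest for Srgn, 0.71.

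Across the 14 arrays, which share group means and background sets, the members fell along different lines. Prf1 and Serpinb9 correlated at r = 0.94 and Gzma and Gzmb at r = 0.936, while Gzmb and Lamp1 correlated at r = -0.358. Gzmm correlated with Lamp1 at r = 0.794 and with Gzma at r = -0.134. The most alike gene of each member was sought among the genes tested, with predicted and clone names passed over. For Gzma it was Prdm1 (r = 0.945), for Gzmb Il12rb2 (r = 0.967), for Gzmk Map3k8 (r = 0.94) and for Gzmm Limd2 (r = 0.925). For Prf1 it was Ctsd (r = 0.968), for Serpinb9 Hsp90b1 (r = 0.965), for Srgn Sp3 (r = 0.953) and for Lamp1 Slc39a6 (r = 0.962). These are Pearson correlations of log2 signal, given as a description.

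The rest of the granule pathway was read from a list of 49 other genes, of which 42 had a probe set and 31 were tested. In KLRG1hi against WT KLRG1lo cells 1 of the 31 rose and none fell. The median difference was 0.23 on the log2 scale, with 25 positive, beside 0.00165 and 50.5% positive over all genes tested. The gene that rose was Serpinb9b, a relative of Serpinb9 that lies next to it on chromosome 13 in RefSeq's gene order. It averaged 6.11 ± 0.46 in KLRG1hi cells (log2, SD, n = 3), against 5.25 ± 0.19 in WT KLRG1lo cells (SD, n = 5); the WT KLRG1lo mean lies within the 5.01 to 5.39 of unnamed probe sets. Its difference was 0.86 (SE 0.18, limma adjusted p = 0.0259), and it passed in 11 of 19 alternative settings, being lost without WT KLRG1hi array 2 or 3 or WT KLRG1lo array 1, 4 or 5 (adjusted p from 0.0501 to 0.188). It was also lost under the replicate block (adjusted p = 0.125), with only the groups compared (adjusted p = 0.101) and within the lower-background arrays (adjusted p = 0.0623). Cross-reaction between its probes and Serpinb9 was not tested.

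None of the 6 other granzymes on the list (Gzmc, Gzmd, Gzme, Gzmf, Gzmg and Gzmn) passed the filter, and their log2 signals lay between 2.82 and 4.70 on all arrays, below the unnamed probe sets. Among 6 proteases and regulators of granzyme activation the median KLRG1hi difference was 0.041. Ctsd and Ctsc, which encode cathepsin D and the peptidase that activates granzymes, had 0.77 (SE 0.18, limma adjusted p = 0.0628) and 0.64 (SE 0.19, limma adjusted p = 0.209). Among 5 genes of granule membrane and cargo all differences were positive, with a median of 0.39 and Nkg7 at 0.62 (SE 0.27, limma adjusted p = 0.61). Of the 17 genes of granule transport, docking and release, 14 were positive, with a median of 0.15 and Sytl2, a Rab27 effector, at 0.83 (SE 0.20, limma adjusted p = 0.0789).

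In Id2KO against WT KLRG1lo cells none of the 31 passed, 29 were positive and the median was 0.35, beside 0.030 and 52.2% positive over all genes tested. Over the 10196 genes above the 60th percentile the all-gene median was 0.20. All 17 transport genes were positive there. Lyst, whose loss causes giant granules in Chediak-Higashi syndrome, had 0.88 (SE 0.23, limma adjusted p = 0.275). The 6 CD8 T cell markers tested were positive in the same comparison too, with a median of 0.32. Markers of other cells had negative medians there, and none passed. All 6 tested neutrophil markers were negative (median -0.54), as were 6 of 8 of monocytes and macrophages (-0.35). So were 4 of 5 of dendritic cells (-0.32), 4 of 5 of B cells (-0.55) and all 3 of mast cells and basophils (-0.13). The NK cell markers split into 3 positive and 3 negative (-0.23). Of the CD4 and regulatory T cell markers 1 was positive and 2 were negative (-0.25). The part of these markers and of the array spread in the pathway values was not tested.

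**Figure D3:**
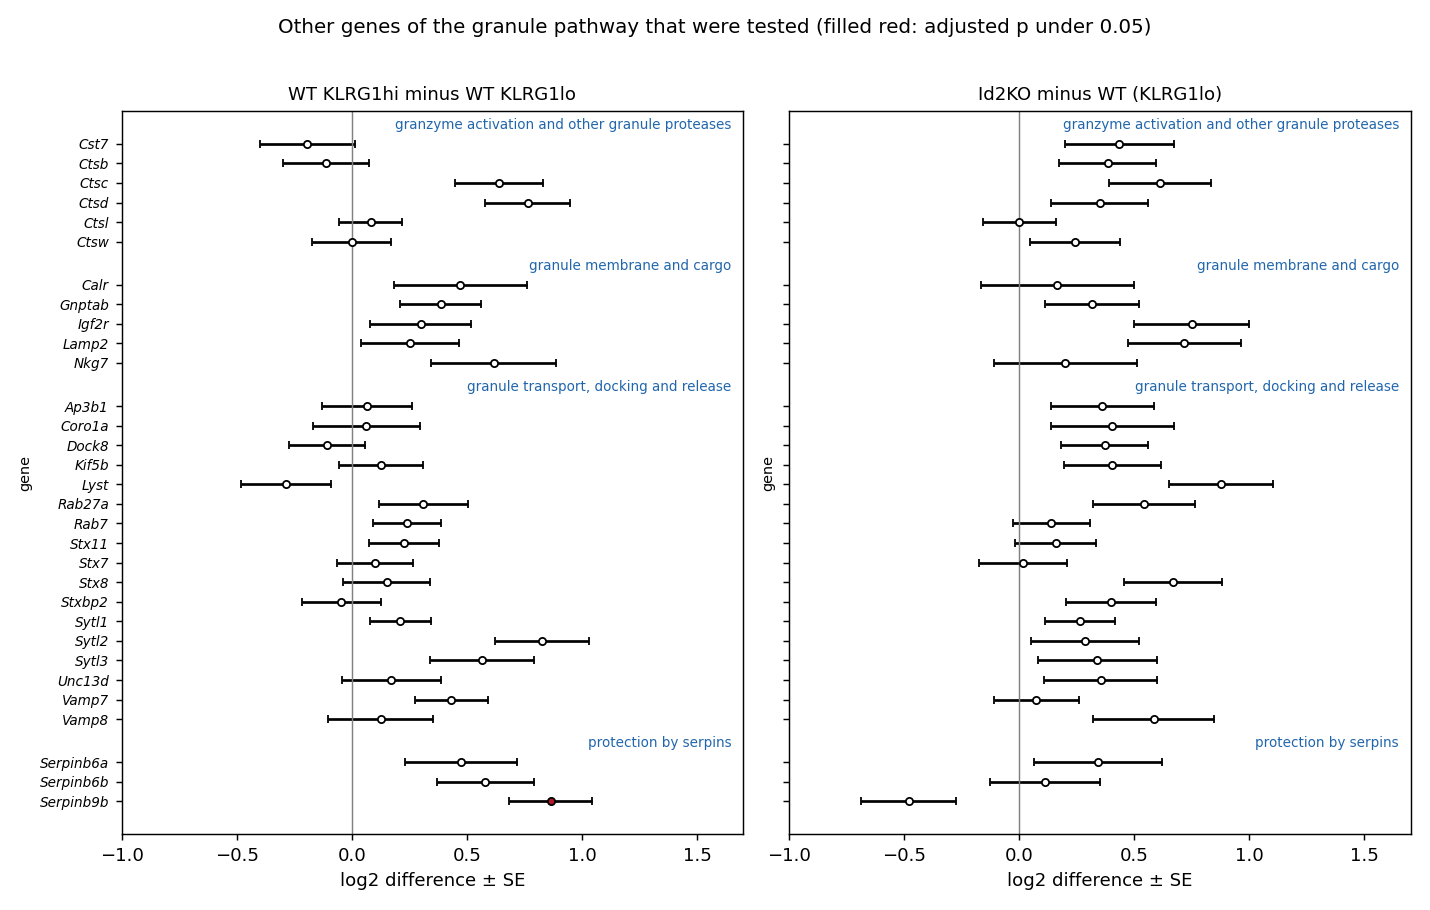
Log2 difference with its SE for the 31 other granule pathway genes tested, WT KLRG1hi minus WT KLRG1lo on the left and Id2KO minus WT KLRG1lo on the right, grouped by list. The filled red point is Serpinb9b, and 29 of the 31 points lie above 0 in the right panel.

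Over 19 alternative settings of the KLRG1hi comparison, Gzma and Gzmb passed in all 19, Gzmk in 12, Prf1 in 11 and Serpinb9 in 4, the fit with a single KLRG1hi array included. The log2 difference of Gzma lay between 2.15 and 2.54 and that of Gzmb between 1.11 and 1.80 in these settings, while that of Serpinb9 ran from 0.26 to 1.82.

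**Figure D4:**
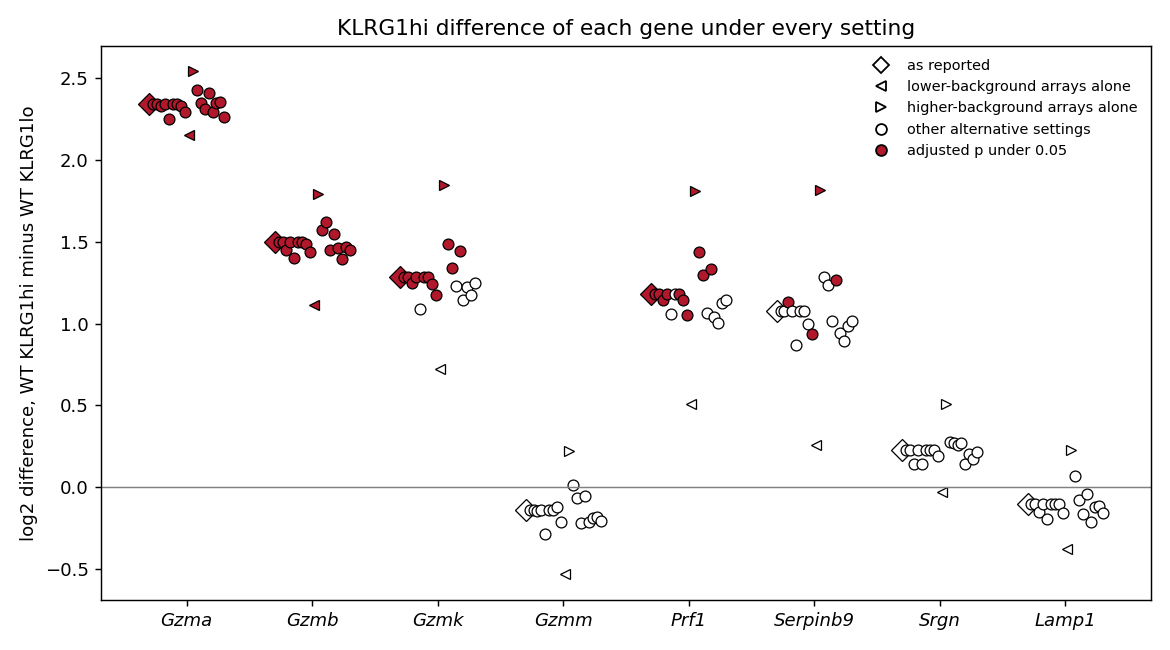
Log2 difference of each gene between WT KLRG1hi and WT KLRG1lo cells as reported (diamond) and under 19 alternative settings, with red fill where the adjusted p was under 0.05. Left-pointing triangles are the lower-background arrays alone and right-pointing triangles the higher-background arrays alone, which hold the lowest and highest values of Gzmk, Prf1 and Serpinb9.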

How the data were processed

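RNA of sorted cells was hybridised to 14 arrays, and the deposited values are the authors' linear intensity for each of 34760 probe sets. The submitters' processing notes name RMA and mm9, without versions. That the deposited scale is linear was judged from its range, and log2 was taken of it with no offset and no further scaling; scanner files were not used here. Names came from the platform annotation, updated by Entrez number through RefSeq names of GRCm38.p6 for 21553 of 21640 probe sets with a single gene name. The probe set with the highest mean stood for a gene.

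Genes above the 40th percentile of an array on at least 2 arrays were tested. limma 3.58.1 in R 4.3.3 with data.table (version 1.17.8) fitted group means to all 14 arrays with 9 residual and 7.99 prior degrees of freedom. The test was two-sided, with Benjamini-Hochberg adjustment over the 14438 genes and a threshold of 0.05. The scripts were tested on simulated data. Named genes were the 8 members, pathway genes that passed and, for each member, the gene with the most alike pattern. Predicted and clone names were passed over for the last of these. The members and lists were chosen with earlier results of these data known; a few pathway genes that did not pass, and the marker genes given with values, were named after their values were seen.

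The alternatives were no filter or one at the 60th percentile, an offset of 16, quantile normalization, a replicate block, the compared groups alone, a robust fit with a trend, averaging a gene's probe sets, the array spread as a covariate, each background set alone and each array left out. Replicate numbers were not used as pairs in the main fit. Deviations from group means correlated at -0.524 to 0.41 in 21 same-numbered pairs. In a group of 2 arrays these deviations mirror each other, so some of the values repeat. Whether replicate numbers pair samples cannot be decided from them.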

Additional observations from a re-analysis of the deposited data

How the results depend on the processing

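In KLRG1hi against WT KLRG1lo cells 4 members passed; 2 did under the replicate block and within the lower-background arrays alone, and 2 to 5 when 1 array was left out, with 2 left without WT KLRG1hi array 2 or 3 or WT KLRG1lo array 3, 4 or 5. In each case of 2 these were Gzma and Gzmb. In Id2KO against WT KLRG1lo cells no member passed except 2, Gzmk and Serpinb9, within the higher-background arrays alone, which hold a single Id2KO array that is assumed to vary like the other groups. Every other comparison had no member called in any alternative run. The cause of these changes was not tested; leaving out arrays also lowers the number of samples.

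The count of all genes called in KLRG1hi cells was 136 as reported. It was 42 with the replicate block, 78 with only the groups compared, 225 after quantile normalization, 376 with the spread covariate, 260 and 1388 within the lower-background and higher-background arrays, and 45 to 179 without 1 array. Of the calls 72.1% were higher in KLRG1hi cells as reported, 59.3% with the spread covariate, and 19.6% and 85% within the lower-background and higher-background arrays. For Id2KO against WT it was 16, with 5 under the replicate block, 26 with only the groups compared, 2405 within the higher-background arrays and 4 to 39 without 1 array. For the mean Id2 effect it was 26, with 8 under the block, 52 with the spread covariate and 13 to 31 without 1 array. For Id2KOBimKO against WT it was 9, with 0 under the block, 24 with the spread covariate and 0 to 13 without 1 array. BimKO against WT had 0, with 105 within the higher-background arrays and up to 8 without 1 array; Id2KOBimKO against BimKO had 0, with up to 4. The interaction had 4, with 63 within the higher-background arrays and 3 to 6 without 1 array. Pathway genes called in KLRG1hi cells were 1 as reported and 0 to 14 in the alternatives.

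Signs turned among differences that had not passed. Within the higher-background arrays the log2 difference was 0.22 for Gzmm and 0.23 for Lamp1 in KLRG1hi against WT, -0.12 for Gzma and -0.003 for Prf1 in Id2KOBimKO against BimKO, 0.047 for Gzmb and 0.11 for Prf1 in BimKO against WT, and 0.11 for Prf1 in Id2KOBimKO against WT. Within the lower-background arrays it was -0.031 for Srgn in KLRG1hi against WT, -0.20 for Prf1 and -0.19 for Serpinb9 in Id2KO against WT, and -0.009 for Gzmm in Id2KOBimKO against WT. With the spread covariate it was -0.39 for Prf1 and -0.29 for Serpinb9 in Id2KO against WT, -0.020 for Gzmm in Id2KOBimKO against BimKO, -0.15 for Prf1 and -0.41 for Serpinb9 in the mean Id2 effect, and -0.017 for Gzmk and -0.038 for Serpinb9 in BimKO against WT. In the interaction it gave 0.13 for Gzmb, 0.012 for Gzmk, 0.47 for Prf1 and 0.040 for Lamp1. After quantile normalization Serpinb9 was at -0.016 in the mean Id2 effect and Lamp1 at -0.010 in BimKO against WT, and the interaction was 0.10 for Gzmb, 0.15 for Prf1 and 0.028 for Lamp1. The replicate block gave -0.13 for Serpinb9 in the mean Id2 effect, -0.11 for Gzmk, -0.004 for Gzmm and -0.23 for Serpinb9 in BimKO against WT, and an interaction of 0.082 for Gzmb and 0.18 for Prf1.

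Leaving out 1 array moved differences across 0 in these ranges. In KLRG1hi against WT they were -0.22 to 0.015 for Gzmm and -0.21 to 0.068 for Lamp1. In Id2KOBimKO against BimKO they were -0.59 to 0.81 for Gzma, -0.074 to 1.01 for Gzmk, -0.37 to 0.48 for Gzmm, -0.003 to 0.45 for Prf1 and -0.059 to 0.024 for Srgn. For the mean Id2 effect they were -0.10 to 0.60 for Gzma and -0.088 to 0.21 for Serpinb9. In BimKO against WT they were -0.98 to 0.42 for Gzma, -0.47 to 0.091 for Gzmb, -0.42 to 0.67 for Gzmk, -0.23 to 0.62 for Gzmm and -0.12 to 0.42 for Serpinb9. In Id2KOBimKO against WT they were -0.40 to 0.055 for Gzma, -0.25 to 0.20 for Prf1 and -0.52 to 0.082 for Serpinb9. For the interaction they were -0.98 to 0.42 for Gzma, -0.40 to 0.15 for Gzmb, -1.01 to 0.079 for Gzmk and -0.30 to 0.15 for Prf1. The lowest signal of any member lay at least 1.18 log2 units above the highest median of unnamed probe sets.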

Other observations

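Gzma and Gzmk lie next to each other on chromosome 13 in RefSeq's gene order, with Gpx8 on one side and Esm1 on the other, and all 4 genes of this run rose in KLRG1hi against WT KLRG1lo cells. These neighbours were named after their values were seen. Gpx8, a peroxidase of the endoplasmic reticulum, averaged 6.96 ± 0.45 in KLRG1hi (log2, SD, n = 3) and 5.24 ± 0.16 in WT KLRG1lo cells (SD, n = 5), where it lay within the range of unnamed probe sets. Its difference was 1.71 (SE 0.18, limma adjusted p = 4.83e-05). Esm1, a secreted proteoglycan, averaged 8.09 ± 0.46 in KLRG1hi (SD, n = 3) and 6.04 ± 0.30 in WT KLRG1lo cells (SD, n = 5), a difference of 2.05 (SE 0.21, limma adjusted p = 3.46e-05). Both passed in 19 of 19 alternative settings. Farther out the differences did not pass, with 0.65 for Cdc20b (SE 0.15, limma adjusted p = 0.0513) beyond Gpx8 and 0.71 for Snx18 (SE 0.17, limma adjusted p = 0.0628) beyond Esm1.

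Over all members, 41 other coding genes within 4 places on either side were tested, and 3 passed in KLRG1hi cells, all higher: Gpx8, Esm1 and Serpinb9b. Over all genes tested 0.942% passed and 0.679% passed as higher. None of the tested neighbours of Gzmm, Prf1, Srgn, Lamp1 or Gzmb did, and Cenpj was the only tested neighbour of Gzmb. In Id2KO against WT KLRG1lo cells Esm1 had 0.91 (SE 0.24, limma adjusted p = 0.275), beside 0.94 for Gzmk and 0.39 for Gzma, and none of these passed. Gpx8 lay at the level of unnamed probe sets in both groups.

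Among the members, the BimKO arrays stood farthest apart in 3 granzymes, named after their values were seen. BimKO arrays 1 and 2 had log2 signals of 9.38 and 10.78 for Gzma, 7.96 and 9.05 for Gzmk and 6.78 and 7.63 for Gzmm. Both belong to the higher-background arrays. Array 2 was also higher for Gzmb (9.84 and 10.39), Serpinb9 (7.19 and 7.73), Prf1 (8.118 and 8.405) and Srgn (11.95 and 12.04). It was lower for Lamp1 (9.44 and 9.39). The share of all genes that differ this much between these arrays was not counted.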
